A study of Homo sapiens with 8 samples.

Results

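Genes whose transcript was present in one METTL5 genotype and nearly absent in the other were collected from the input RNA of a ribosome profiling experiment. A gene was called on when the METTL5-WT input libraries held at most 2 reads together and each METTL5-KO input library held at least 10, and off when the METTL5-KO input libraries held at most 2 reads together and each METTL5-WT library held at least 10. The genes were chosen by these counts, so their input values are given below as a description and carry no test. The rule took 65 on and 14 off genes, 79 of the 60718 genes in the count table. The on genes were 0.480% of the 13535 genes with at least 10 reads in both METTL5-KO libraries, and the off genes were 0.108% of the 12935 genes with at least 10 reads in both METTL5-WT libraries.

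Each genotype had 2 input libraries, of rRNA-depleted total RNA from the lysate, and 2 matching libraries of ribosome-protected fragments (RPF), the stretches of mRNA that ribosomes shield from nuclease. All cells were labelled HepG2, a human hepatoblastoma line, and all were treated briefly with cycloheximide, which halts elongating ribosomes. METTL5-KO cells had been cut with Cas9 and guides meant, by the labels, to excise exons 2 to 3 of METTL5, while the study's text places the deletion in its HepG2 clones across exons 3 and 4. Knockout lines were grown from single cells, which clone gave which library is not stated, and nothing says that replicates came from separate cultures, so the spread between them may be technical. A difference between 2 clones and an effect of the genotype cannot be told apart in this design.

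METTL5 is the methyltransferase that places N6-methyladenosine on 18S rRNA, a modification of the small ribosomal subunit. Genes that are silent in one state of a cell and active in another often depend on a tissue or a signal, and interferon-inducible genes, which rise together when a cell senses interferon or foreign nucleic acid, are a familiar example. Promoters rich in CpG dinucleotides tend to serve broadly expressed genes, and CpG-poor promoters tend to serve genes restricted to a tissue or a signal.

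The input libraries held 11211608 and 10710226 counted reads in METTL5-WT against 12672012 and 15307257 in METTL5-KO, so absence was read from the shallower pair for the on genes. METTL5 itself had 490 and 542 input reads in METTL5-WT against 208 and 151 in METTL5-KO, and 158 and 226 against 41 and 21 RPF reads, lower in both knockout libraries of each kind but not gone. The label HepG2 was not borne out by its defining transcripts. Summed over 12 hepatocyte markers the input level was 0.373 to 0.917 CPM (the read count scaled to library depth) a library, with 8 to 10 of the 12 at 0. ALB (albumin) had 0, 0, 0 and 1 reads, and APOA1, TTR and SERPINA1 had at most 2 in any library. The markers with the most reads were AFP, with 0 and 0 in METTL5-WT against 5 and 9 in METTL5-KO, and APOB, with 4 and 2 against 0 and 0. AFP stayed below the limit of 10 reads for an on gene. Transcripts of other adherent lines were abundant in every library, with a summed level of 2961 to 3284 CPM over 10 genes, all but KRT6A detected in all 4, among them VIM (vimentin) at 12326 to 17631 reads. Markers of blood and immune cells summed to 0 to 0.179 CPM. The libraries are therefore called METTL5-WT and METTL5-KO below, and no cell type is read into the genes that follow.

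Most switched genes were present at a low level, and in bulk RNA a few cells with many transcripts and many cells with few cannot be told apart. The on genes had 20 to 348 reads summed over the METTL5-KO libraries, with a median of 41, and a mean level of 0.719 to 12.4 CPM, with a median of 1.47 CPM. The METTL5-WT libraries together held 0 reads of 22 on genes, 1 read of 21 and 2 reads of 22. The off genes had 21 to 318 reads over the METTL5-WT libraries, with a median of 36.5, and 0 reads in METTL5-KO for 5 genes, 1 for 3 and 2 for 6. Among on genes 10 reached 100 reads and 19 stayed under 30, and among off genes 2 reached 100 and 6 stayed under 30. The 2 libraries of the high genotype differed by a median of 1.28-fold in CPM for on genes and 1.23-fold for off genes, and by more than 2-fold for HMGA2 and TRPV3 alone. Per kilobase of exon, the median switched gene lay at 0.373 (on) and 0.455 (off) RPKM (the read count scaled to exon length and library depth), against 6.80 RPKM over the 12586 genes with at least 10 reads in all 4 input libraries.

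In the fit across the whole count table (edgeR's quasi-likelihood test, Benjamini-Hochberg adjusted p under 0.05), 11.8% of 14054 genes tested were higher and 10.6% lower in METTL5-KO. Of the on genes 50 of 65 had enough reads to enter that fit and all 50 were called higher, and all 14 off genes entered and were called lower. The rule used this same contrast, so nothing is read from those calls. When counts were scaled to the smallest library before the rule was applied, 43 of the 65 on genes and 13 of the 14 off genes still met it.

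**Figure D1:**
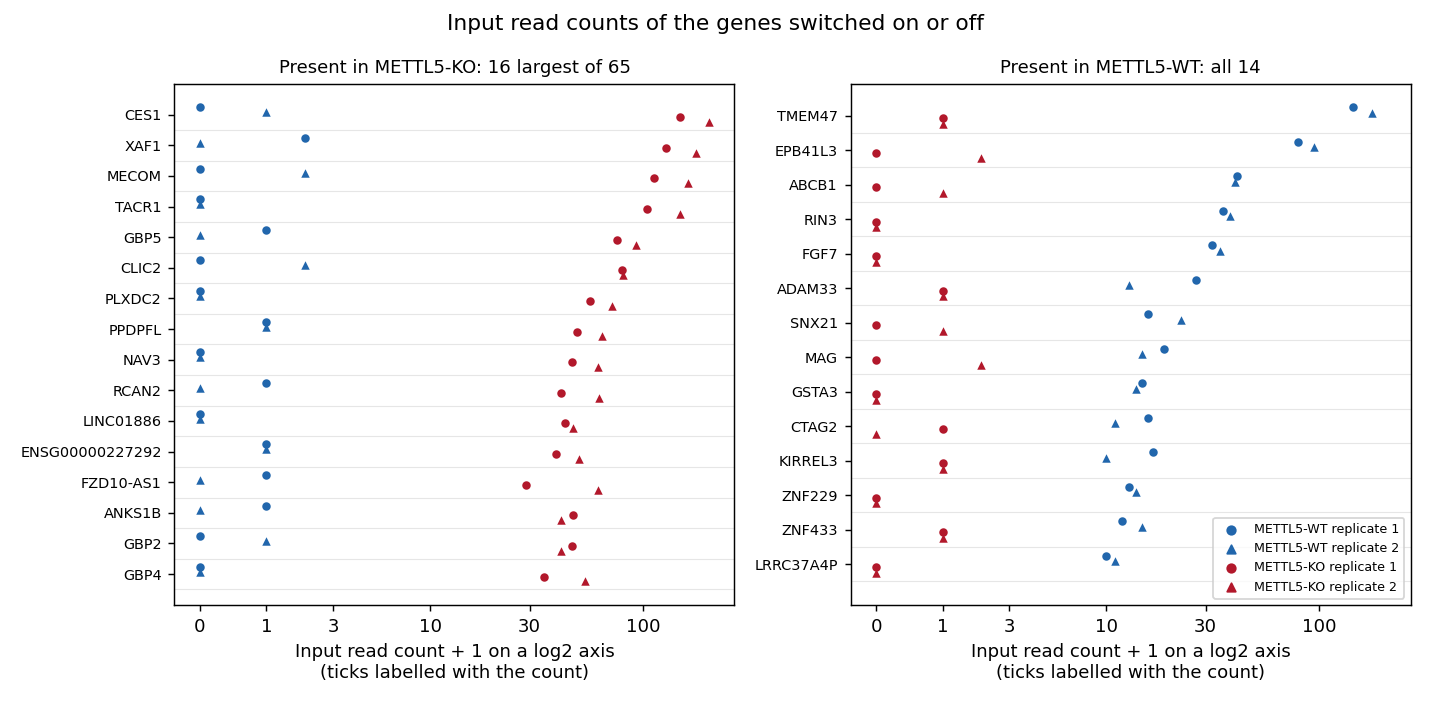
Input reads per library, on a log2 axis of count + 1, for the 16 on genes with the largest sums (left) and the 14 off genes (right); circles are replicate 1, triangles replicate 2, blue METTL5-WT and red METTL5-KO. CES1 stands highest on the left, at 148 and 200 reads against 0 and 1, and TMEM47 highest on the right, at 143 and 175 reads against 1 and 1.

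The switched genes were sorted by their known function after their counts were seen. Interferon-inducible genes made up 7 of the 65 on genes. XAF1, an interferon-inducible antagonist of the apoptosis inhibitor XIAP, had 2 and 0 reads in METTL5-WT against 128 and 174 in METTL5-KO, a ratio of 118 with a 95% counting interval of 32.4 to 978. Such intervals, and the floors used below, cover counting error only. The guanylate-binding proteins are large GTPases that assemble on intracellular pathogens and their vacuoles. GBP5 had 1 and 0 against 76 and 93 reads. GBP2 had 0 and 1 against 47 and 42, and GBP4 had 0 and 0 against 35 and 54, at least 11.4-fold higher when 3 reads in each empty library are taken as the floor. CXCL10, a chemokine that draws CXCR3-bearing lymphocytes, had 0 and 1 against 31 and 33 reads. MX2, a dynamin-like GTPase that restricts viral nuclear entry, was at 0 in both METTL5-WT libraries and at 14 and 27 reads in METTL5-KO, at least 5.22-fold higher. CASP1, the protease of the inflammasome, was near the lower edge at 2 and 0 against 16 and 10 reads. Every METTL5-KO library lay above every METTL5-WT library for all 7, as the rule requires.

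Other interferon genes were present in METTL5-WT and so could not meet the rule. Of 21 interferon-stimulated genes chosen with earlier results of these data known, 4 met the rule (GBP2, GBP4, GBP5 and MX2), whose call the rule fixed. Of the other 17, 16 were called higher and 0 lower, beside 11.8% and 10.6% of all genes tested, with a median log2 fold change of 3.24 beside -0.004. As the list was chosen with the results known, this count is a description. IFI44L had 3 and 4 against 818 and 966 reads, IFI27 had 15 and 12 against 1382 and 1782, and OAS2 had 12 and 1 against 255 and 270. ISG15, a ubiquitin-like modifier, was already at 644 and 574 reads in METTL5-WT and reached 1943 and 2720 in METTL5-KO. MX1, which lies beside MX2 in the genome and is usually induced with it, was the exception at 9 and 16 against 16 and 25 reads and was not called.

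Enzymes of lipid, drug and amine metabolism gave 4 on genes. CES1 (ENSG00000198848, chr16:55802851-55833337, hg38), a carboxylesterase that hydrolyses drugs and cholesteryl esters, had the most reads of any on gene, with 0 and 1 in METTL5-WT against 148 and 200 in METTL5-KO, a ratio of 272 with an interval of 48.4 to 10761. Its close relatives did not share this. CES2 had 274 and 289 against 293 and 415 reads and CES3 had 22 and 9 against 10 and 3, and neither was called. The pseudogenes CES1P1 and CES1P2, which resemble CES1 and could take reads from it, held at most 3 reads in any library. CYP4F3, which inactivates leukotriene B4, had 0 and 1 against 26 and 26 reads, AOC3, a cell-surface amine oxidase, had 0 and 2 against 34 and 42, and CYP4X1 sat at the threshold with 0 and 0 against 10 and 10.

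Transporters and channels gave 6 on genes. CLIC2, a member of the chloride intracellular channel family, had 0 and 2 reads in METTL5-WT against 80 and 81 in METTL5-KO. SLC6A15, a neutral amino acid transporter, was at 0 and 0 against 16 and 27 reads, and SLCO2B1, an organic anion transporter, at 0 and 0 against 11 and 21. SLC15A3, a lysosomal peptide transporter, had 1 and 1 against 10 and 11, and the heat-sensitive channel TRPV3 0 and 2 against 10 and 24. The 4 solute carriers came from 213 solute carrier genes with at least 10 reads in both libraries of a genotype, of which none was off. No potassium, sodium or calcium channel gene of 36 so counted was on or off. Over all genes so counted, 79 of 13884 were on or off, and no result about these families is read from such small counts.

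Secreted ligands and surface receptors were also present. TACR1 (ENSG00000115353, chr2:75046463-75199520), the receptor for substance P, was the largest gene with no METTL5-WT read, at 0 and 0 against 104 and 147, at least 32.4-fold higher. PLXDC2, a transmembrane protein with a plexin-like domain, was at 0 and 0 against 57 and 72 reads, at least 16.7-fold higher, and TSPAN8, a tetraspanin, at 0 and 0 against 28 and 36. Among ligands, BTC (betacellulin, an EGF receptor ligand) had 1 and 1 against 27 and 23 reads. RSPO3, which strengthens Wnt signalling through LGR receptors, had 0 and 0 against 32 and 20, and VEGFC, the lymphatic growth factor, had 0 and 1 against 12 and 19. These 3 ligands were each above 10 reads in both METTL5-KO libraries and at most 1 in any METTL5-WT library. VEGFC was the only on gene among 58 genes whose symbols begin with FGF, BMP, WNT, TGFB, GDF, PDGF, VEGF or IGF. That set was taken by letters and is not limited to ligands. In it 4 genes were called higher and 16 lower, beside 11.8% and 10.6% of all genes tested. Those calls include VEGFC (higher) and the off gene FGF7 (lower), whose direction the rule fixed.

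Nuclear and intracellular proteins completed the coding on genes. MECOM, a zinc finger transcription factor of blood stem cells and of some leukaemias, had 0 and 2 reads in METTL5-WT against 112 and 161 in METTL5-KO, a ratio of 107 with an interval of 29.2 to 884. HMGA2, a chromatin protein of embryonic and tumour cells, had 0 and 1 against 33 and 19 reads, and APLF, a DNA repair factor, 0 and 0 against 29 and 24. NAV3, a microtubule-associated protein and the only one of 38 axon guidance genes to be switched, was at 0 and 0 against 47 and 62, at least 14.1-fold higher. RCAN2, an inhibitor of calcineurin, had 1 and 0 against 42 and 63 reads, and ANKS1B, a synaptic scaffold, 1 and 0 against 48 and 42. PPDPFL (chr8:49054311-49076093), whose function is little known, had 1 and 1 against 50 and 65. IL16, RAG1 and FERMT3, genes usually active in blood cells, stayed at 10 to 21 reads a METTL5-KO library and at most 1 read in METTL5-WT.

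Of the 65 on genes 47 were annotated as protein coding and 14 as lncRNA, and the others were 1 snoRNA, 1 Y RNA, 1 processed pseudogene and 1 gene with no entry in the annotation used here. Over the 12586 genes with at least 10 reads in all 4 input libraries, 87.5% were protein coding and 5.70% lncRNA. Those genes lie at far higher read levels than the on genes, and the biotypes of other genes of low level were not counted. The most abundant noncoding on genes by reads were LINC01886 with 0 and 0 against 44 and 48, at least 12.0-fold higher, ENSG00000227292 with 1 and 1 against 40 and 51, and FZD10-AS1 with 1 and 0 against 29 and 62. FZD10-AS1 was the least even of these, with 2.27 and 4.06 CPM in the METTL5-KO libraries. Some positions were shared with another counted gene. On the same strand SNORD67 lies inside CKAP5 and ANKS1B overlaps RNA5SP366, and 11 on and 3 off genes overlap a counted gene on the opposite strand. Counting used strand and uniquely mapped reads, so opposite-strand reads were kept apart only as far as the library marks strand. The median on gene spanned 47.4 kb with 4.29 kb of exon, the median off gene 30.6 kb with 5.67 kb, and the median of the 12586 genes was 29.6 kb with 5.06 kb.

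The 14 off genes had no family in common, and 13 of them were protein coding. TMEM47 (ENSG00000147027, chrX:34627075-34657285), a claudin-related protein of cell junctions, led them with 143 and 175 reads in METTL5-WT against 1 and 1 in METTL5-KO, a ratio of 204 with an interval of 55.9 to 1689. EPB41L3 (chr18:5392381-5630700), a membrane-cytoskeleton linker of the protein 4.1 family, had 80 and 95 against 0 and 2 reads. ABCB1, the multidrug efflux pump P-glycoprotein, had 42 and 41 against 0 and 1, a ratio of 106 with an interval of 18.6 to 4249. No METTL5-KO library held more than 2 reads of any of these 3.

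RIN3, an exchange factor for Rab5 GTPases, had 36 and 39 reads in METTL5-WT and none in METTL5-KO, at least 15.9-fold lower. FGF7, the keratinocyte growth factor, had 32 and 35 against 0 and 0, at least 14.2-fold lower, and it overlaps FAM227B on the opposite strand. Both genes were empty in the deeper pair of libraries. ADAM33, a metalloprotease, had 27 and 13 against 1 and 1 reads, SNX21, a sorting nexin, 16 and 23 against 0 and 1, MAG, a myelin glycoprotein, 19 and 15 against 0 and 2, and GSTA3, a glutathione transferase of steroid synthesis, 15 and 14 against 0 and 0. KIRREL3, an adhesion molecule, had 17 and 10 against 1 and 1, and CTAG2, a cancer-testis antigen, 16 and 11 against 1 and 0. The zinc finger genes ZNF433 (12 and 15 against 1 and 1) and ZNF229 (13 and 14 against 0 and 0) were the 2 switched of 355 ZNF genes so counted, and the pseudogene LRRC37A4P closed the list at 10 and 11 against 0 and 0. CTAG2 and LRRC37A4P have near-identical relatives, and reads that map to more than 1 place were not counted, so their values are uncertain. None of 25 HOX genes, 14 cadherin and protocadherin genes or 9 imprinted genes was on or off. Nor was any of 37 genes whose symbols begin with COL or LAM, a set not limited to collagens and laminins. CTAG2 was the only one switched among 9 genes taken by cancer-testis symbols, a set that was not limited to the X chromosome. Of all genes with at least 10 reads in both libraries of a genotype, 79 of 13884 were on or off. At that share such sets would hold few or none, so no result is read from these counts or from that of the ZNF genes.

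The start-site regions of the switched genes are shown for 5 genes, chosen after their values were seen. Of the 7 interferon-inducible on genes, CXCL10, GBP4 and XAF1 had an entry and GBP2, GBP5, MX2 and CASP1 did not. CXCL10 and GBP4 hold the core of an interferon response element, FGF7 is the off gene that holds it, TACR1 is the on gene with the most reads among those empty in METTL5-WT, and TMEM47 is the off gene with the most reads. The sequences are RefSeq's, on GRCh38.p14, written 5′ to 3′ on the gene's strand and ending at the annotated start, except that GBP4 runs 6 bases past it so that its match is whole. Capitals mark GAAANNGAA on either strand in CXCL10, GBP4 and FGF7, TATAAA in TACR1 and GGGCGG on either strand in TMEM47.
CXCL10, chr4:76023498-76023747, minus strand: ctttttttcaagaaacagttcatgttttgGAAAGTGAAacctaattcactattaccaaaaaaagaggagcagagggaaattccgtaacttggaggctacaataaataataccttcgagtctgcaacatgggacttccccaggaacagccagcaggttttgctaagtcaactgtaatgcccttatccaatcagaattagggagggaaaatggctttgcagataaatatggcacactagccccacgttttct
GBP4, chr1:89198937-89199192, minus strand: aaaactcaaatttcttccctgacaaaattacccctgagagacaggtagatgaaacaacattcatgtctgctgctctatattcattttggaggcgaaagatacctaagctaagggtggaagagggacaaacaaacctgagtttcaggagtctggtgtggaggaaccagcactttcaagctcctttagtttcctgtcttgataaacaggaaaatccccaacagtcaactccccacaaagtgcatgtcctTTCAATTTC
TACR1, chr2:75199521-75199770, minus strand: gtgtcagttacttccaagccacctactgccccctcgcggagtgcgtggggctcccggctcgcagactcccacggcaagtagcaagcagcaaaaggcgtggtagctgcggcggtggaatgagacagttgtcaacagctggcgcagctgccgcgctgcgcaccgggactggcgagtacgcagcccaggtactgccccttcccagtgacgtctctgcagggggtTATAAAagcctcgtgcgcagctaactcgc
TMEM47, chrX:34657286-34657535, minus strand: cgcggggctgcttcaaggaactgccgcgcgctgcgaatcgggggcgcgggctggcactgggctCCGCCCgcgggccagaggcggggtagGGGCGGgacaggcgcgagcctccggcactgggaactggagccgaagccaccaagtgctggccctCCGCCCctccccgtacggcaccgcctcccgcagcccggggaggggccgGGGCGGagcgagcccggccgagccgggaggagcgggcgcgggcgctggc
FGF7, chr15:49422992-49423241, plus strand: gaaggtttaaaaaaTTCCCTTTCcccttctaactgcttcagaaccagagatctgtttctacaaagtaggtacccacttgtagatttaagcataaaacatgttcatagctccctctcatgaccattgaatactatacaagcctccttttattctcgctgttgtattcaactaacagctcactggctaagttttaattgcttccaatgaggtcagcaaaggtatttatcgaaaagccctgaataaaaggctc

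Of the 79 genes 46 had an entry in the RefSeq table of start-site regions, which cover 250 bases before and 50 after each start. Where a gene had several, the start nearest to the 5′ end of the counted gene was used. On genes had few CpG dinucleotides in these 300 bases. The ratio of observed to expected CpG was 0.6 or more in 10 of 35 on genes (28.6%) and in 7 of 11 off genes (63.6%), against 86.2% of 9512 genes with at least 10 reads in all 4 input libraries and 60.7% of all 19079 genes with an entry. The median ratio was 0.375 in on genes, 0.741 in off genes, 0.854 in the expressed genes and 0.731 in all. The extremes among on genes were ANXA10, with no CpG at all, and ANKS1B, with 55, and among off genes ABCB1, with 1, and TMEM47, with 45. Expressed genes lie at far higher read levels than the switched genes, and genes of low level were not compared apart.

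Letter matches were counted on both strands in the same 300 bases. GAAANNGAA occurred in 4 of 35 on genes (CXCL10, GBP4, LINC01885 and RSPO3; 11.4%) and in 1 of 11 off genes (FGF7; 9.09%), against 6.29% of the expressed genes and 7.38% of all. XAF1 has an entry and no match in this window. TATAAA occurred in 17.1% of on genes, 5.31% of expressed genes and 10.2% of all, GGGCGG in 42.9%, 72.0% and 54.4%, and CCAAT in 17.1%, 37.6% and 36.2%. The CXCL10 match starts at position -221 from the start, the GBP4 match at -3, the FGF7 match at -236 and the TACR1 TATAAA at -29, and the 4 GGGCGG matches of TMEM47 start between -187 and -49. With 35 and 11 genes these shares describe the letters present and are not read as binding sites.

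**Figure D2:**
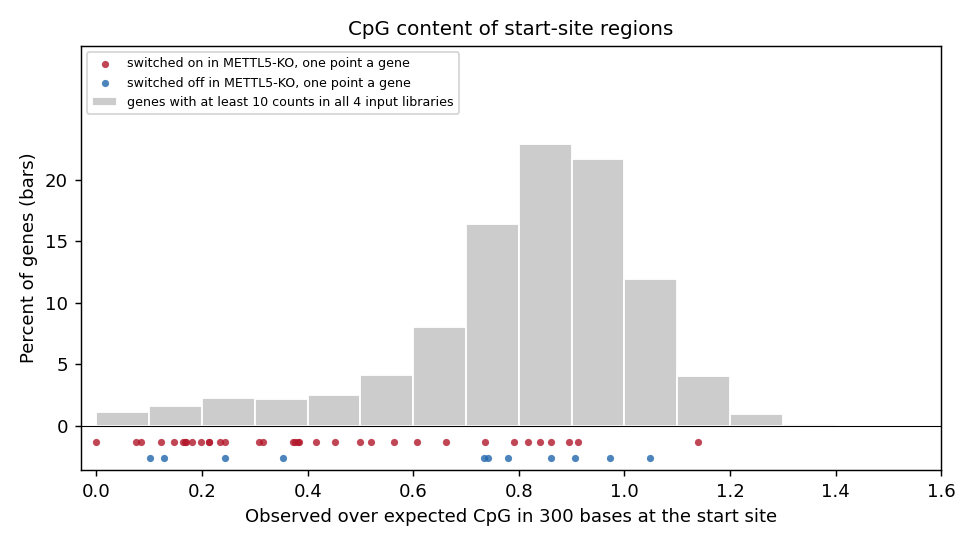
Observed over expected CpG in the 300 bases around the start (horizontal axis) for genes with at least 10 counts in all 4 input libraries (grey bars, percent of 9512 genes) and for each on (red) and off (blue) gene with an entry. Most red points lie left of the grey peak, with a median of 0.375 against 0.854, while 7 of 11 blue points lie at 0.6 or above.

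Neighbouring genes were examined to see whether the change reached beyond the switched gene, taking up to 3 tested genes that were not themselves switched on each side within 500 kb. The neighbours of on genes were 216 genes, of which 35 (16.2%) were called higher and 21 (9.72%) lower, beside 11.8% and 10.6% of all genes tested. Their median log2 fold change was 0.01, beside -0.004 over all genes. The neighbours of off genes were 73 genes, of which 10 (13.7%) were lower and 12 (16.4%) higher, with a median of -0.04. The share called higher beside on genes moved with the fit, to 8.37% by DESeq2, where 7.91% of all genes were higher, and to 7.05% and 6.73% without METTL5-WT replicate 1 and 2, where 4.39% and 5.01% of all genes were. Among the single nearest genes on each side, 21 of 95 beside on genes (22.1%) were higher and 9 (9.47%) lower. Of the 25 beside off genes 5 (20.0%) were lower and 3 (12.0%) higher. By switched gene, 8 on genes had no tested neighbour, 30 had none called the same way, 14 had 1 and 13 had 2 or more. For off genes these numbers were 1, 7, 3 and 3. Here a neighbour counts again for each switched gene. GBP2, GBP4 and GBP5 each count GBP1 and GBP3, and CYP4F3 and ENSG00000267056 share all their called neighbours. The same count was not made around all genes, so nothing is read from these numbers.

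Switched genes of the same direction lay within 1000 kb of each other in 3 places. The largest was the guanylate-binding protein cluster (chr1:89006679-89388160 from GBP3 to GBP6), where GBP2, GBP4 and GBP5 met the rule and GBP1 and GBP3 missed it on their few METTL5-WT reads. GBP1 had 6 and 1 against 359 and 501 reads (log2 fold change 6.53), and GBP3 had 4 and 8 against 250 and 256 (5.02). GBP7, at 0 reads in all 4 libraries, and GBP6, at 0, 0, 1 and 0, lie in the same array and were not detected in either genotype. The members of this family resemble each other in sequence, so reads shared between them would be lost from all of them.

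The CYP4F cluster on chromosome 19 held CYP4F3 and the processed pseudogene ENSG00000267056 (0 and 0 against 11 and 14 reads). CYP4F11, whose 3′ end lies 0.543 kb from that pseudogene, had 8 and 6 against 214 and 196 reads (log2 fold change 4.51). CYP4F2, CYP4F8 and CYP4F12, which lie between or beside them, had at most 2 reads in any library. CYP4F22 followed the libraries and not the genotype, with 148 and 15 reads in METTL5-WT against 7 and 128 in METTL5-KO. The third place was LINC01885 (1 and 0 against 42 and 41 reads) and LINC01886, which overlap on opposite strands of chromosome 2.

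Some single on genes had a neighbour that moved with them, and some had one that moved the other way. The neighbours of on genes named here are examples from the 35 called higher and 21 called lower. FZD10, a Wnt receptor 0.203 kb from FZD10-AS1, had 6 and 4 against 20 and 32 reads (log2 fold change 1.99). CYP39A1, an oxysterol hydroxylase 57.6 kb from RCAN2, had 11 and 12 against 94 and 68 (2.47), and GNAO1, a G protein subunit 358 kb from CES1, had 42 and 27 against 182 and 277 (2.36). Chosen after their values were seen, EPGN (epigen), another EGF receptor ligand and the nearest tested gene on one side of BTC at 428 kb, had 14 and 23 against 312 and 263 reads (3.61), and CXCL11, a chemokine 10.2 kb from CXCL10, 6 and 0 against 21 and 24 (2.51). Chosen likewise, NAAA, 80.1 kb from CXCL10, was lower at 28 and 17 against 4 and 10 reads (-2.03), and so was USO1 (-0.43). Also lower were EVA1A near TACR1 (-1.23), TPBGL-AS1, which overlaps SLCO2B1 (-1.32), and KRT8 near KRT4 (-1.04). Beside off genes, ADAM22, 221 kb from ABCB1, was lower at 97 and 115 against 59 and 62 reads (-1.16), GSTA4, 68.2 kb from GSTA3, was lower at 183 and 192 against 115 and 175 (-0.74), and L3MBTL4, 324 kb from EPB41L3, was higher (2.15). ABCB4, the closest relative of ABCB1 and next to it, had at most 3 reads in any library and could not be compared.

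**Figure D3:**
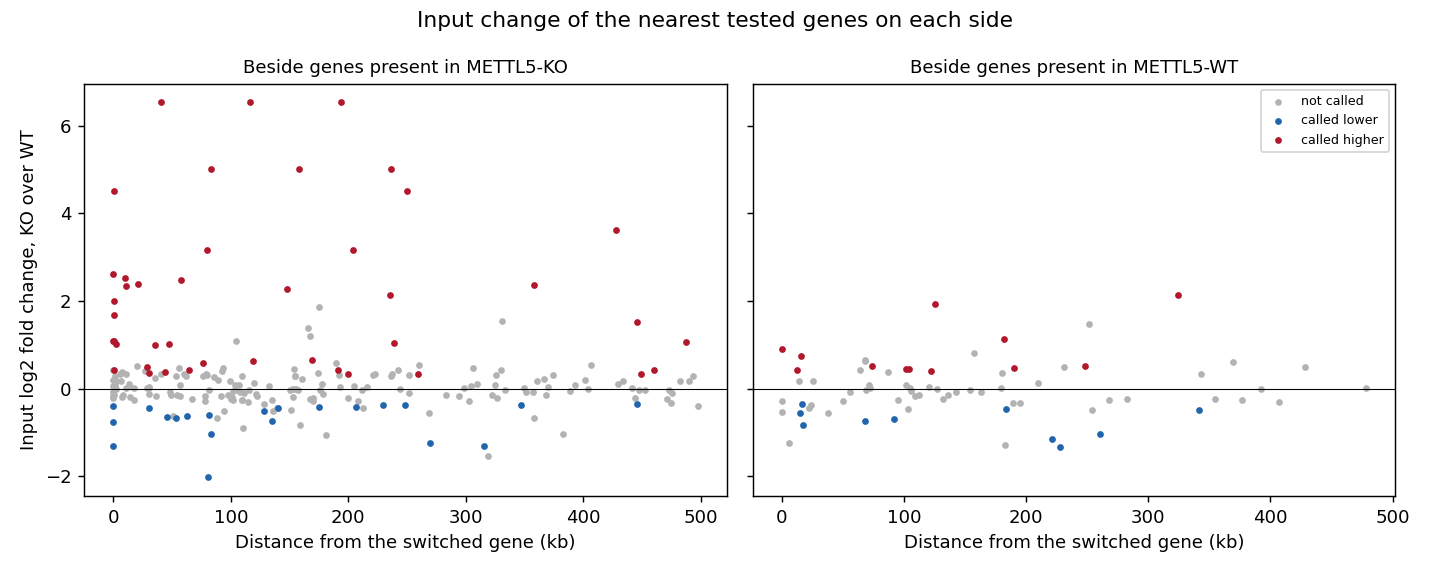
Input log2 fold change, METTL5-KO over METTL5-WT, of the nearest tested genes against their distance in kb from an on gene (left) or an off gene (right); red and blue points were called higher and lower, and a gene near several switched genes appears once for each. The points at 6.53 and 5.02 on the left are GBP1 and GBP3, each shown 3 times, and most other points lie near 0.

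Switched genes lay on the X chromosome and on every autosome except chromosomes 13 and 22. Chromosome 12 held 8 on genes, chromosome 2 held 7, chromosome 11 held 6, and chromosomes 1 and 4 held 5 each. The off genes lay mostly singly, with 3 on chromosome 19 and 2 each on chromosomes 20 and X. Per 1000 genes with at least 10 reads in both libraries of a genotype, the numbers were highest on chromosome X (11.2), chromosome 20 (10.6), chromosome 12 (10.6) and chromosome 4 (10.3), each from 4 to 8 genes. Over all chromosomes 79 of 13884 such genes were switched, and whether any chromosome departs from that share was not tested. No chromosome held only off genes except chromosome 18, with EPB41L3 alone.

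The rule did not use the RPF libraries, made from the same lysates, so they allow a test. The deposited table of translation holds only genes with at least 1 read in all 8 input and RPF libraries, and its RPF columns sum to 3970779 and 4592443 reads in METTL5-WT against 8626705 and 9255921 in METTL5-KO. It could thus hold a switched gene only where the low genotype had not reached 0. Of the 79 genes, 12 had a read in every input library and 8 of these were in the table, 4 on and 4 off. They were tested with limma on log2 values with all 11244 genes of the table, of which 13.7% were higher and 10.7% lower in METTL5-KO at an adjusted p under 0.05.

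TMEM47 had 47 and 26 RPF reads in METTL5-WT against 6 and 2 in METTL5-KO, which gave a log2 fold change (with its SE) of -3.91 ± 0.63 and an adjusted p of 0.000308 by limma. ADAM33 had 12 and 19 against 6 and 2 RPF reads, with -2.72 ± 0.68 and an adjusted p of 0.00838 by limma. PPDPFL had 2 and 3 against 24 and 33, with 2.40 ± 0.62 and an adjusted p of 0.00961 by limma. These 3 of 8 genes changed in the direction of their input counts, and for each the normalised values of the genotypes did not overlap, as was so for 32.4% of all 11244 genes in the higher and 29.0% in the lower direction. With 1 METTL5-KO library left out, PPDPFL was at an adjusted p of 0.0863 by limma without replicate 1 (log2 fold change 2.57) and at 0.165 without replicate 2 (2.24), and ADAM33 at 0.0928 without replicate 2 (-2.04). Calls over all genes fell in the same fits, from 1546 higher and 1198 lower to 791 and 678 without METTL5-KO replicate 1 and 833 and 665 without replicate 2.

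The other 5 genes did not pass in this fit. KIRREL3 had 4 and 20 against 2 and 6 RPF reads (-2.02 ± 0.80, adjusted p of 0.0798 by limma) and ZNF433 had 3 and 7 against 1 and 1 (-2.36 ± 0.90, adjusted p of 0.0685 by limma). Their normalised values did not overlap between genotypes, although the reads of KIRREL3 did, and edgeR on the recovered reads put them at adjusted p values of 0.0240 and 0.0322. CADPS2, a regulator of vesicle release, had 2 and 2 against 8 and 12 RPF reads in libraries of unequal depth, a log2 fold change of 1.20 ± 0.75. ALPK3, a kinase of heart muscle, had 2 and 7 against 13 and 10 RPF reads, which overlapped once scaled to depth (normalised values of 4.75 and 14.04 against 15.7 and 11.2), and IGSF1, a membrane glycoprotein, had 1 and 3 against 2 and 2. IGSF1 was the only one of the 8 whose RPF log2 fold change, -0.55 ± 0.96, had the opposite sign to its input counts.

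**Figure D4:**
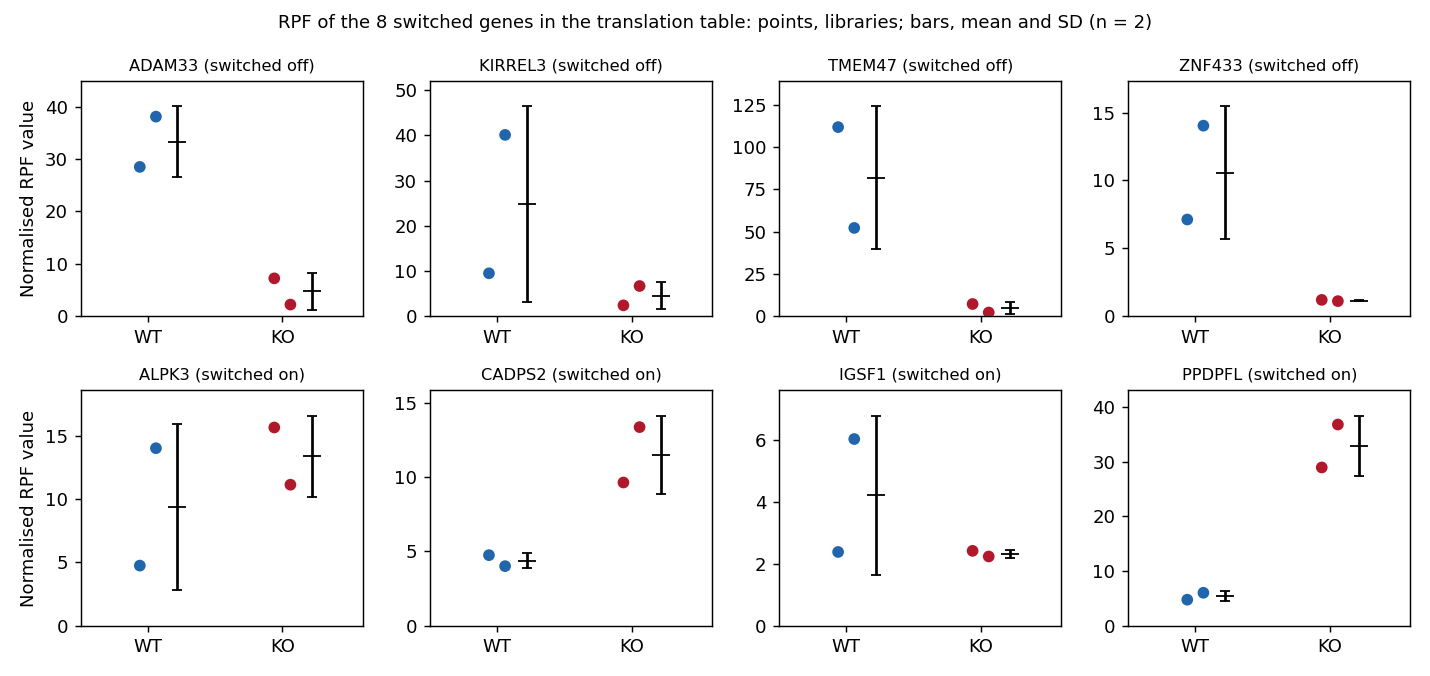
Normalised RPF values, which the authors scaled per library, of the 8 switched genes in the translation table; points are libraries (blue METTL5-WT, red METTL5-KO) and bars the mean and SD of 2, with each axis from 0. TMEM47, ADAM33 and ZNF433 fall from left to right, PPDPFL rises from 4.75 and 6.02 to 28.9 and 36.8, and ALPK3 and IGSF1 overlap.

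The limits of the rule cut through a continuous range of counts. Among on genes 22 sat at the limit of 2 METTL5-WT reads and 12 had a lowest METTL5-KO count of 10. Just outside, 18 genes had 3 METTL5-WT reads, and some of these were abundant in METTL5-KO. SLCO4A1-AS1 had 1 and 2 against 458 and 727 reads, more than any on gene, and NR3C2, the mineralocorticoid receptor, had 2 and 1 against 118 and 116. A further 14 genes had a lowest METTL5-KO count of 9, AK8 and ITGA11 among them. Among off genes 6 sat at 2 METTL5-KO reads, and LIME1, at 10 and 12 against 2 and 1, missed the rule by 1 read.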

How the data were processed

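RNA from METTL5-WT and METTL5-KO cells labelled HepG2 was sequenced as input and RPF, with 2 libraries of each kind per genotype. Per the methods and labels, the authors trimmed reads, aligned input to hg38 with STAR 2.7.3a and deposited a table of raw counts per gene made with featureCounts on uniquely mapped, stranded reads. Its header names version 2.0.1, and the methods name 1.6.0. The authors also deposited a translation table whose signal values are reads divided by a factor per library. All values in it were whole multiples of what 1 read is worth, within 0.02 reads, so RPF reads were recovered. Its columns of log2 fold changes and p-values are the authors' own comparison of translation efficiency and were not used here. The 3 broken lines of 1 gene in the count file were left out. CPM are counts per library total and RPKM divide them by exon length.

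The rule was applied to the 4 input columns. Members, gene lists, marker lists and functional groups were chosen with earlier results of these data known. Gene families were taken by the first letters of the symbol among protein coding genes, so they can hold genes of other kinds. The genes given with full values were those with the largest sums, those in the translation table, in clusters, on the lists or at the edge of the rule. Input counts were fitted for all genes with edgeR 4.0.16 (quasi-likelihood test, TMM, genes kept by its expression filter), and RPF values with limma 3.58.1 on log2(value + 1) with a trend, over the 4 RPF libraries. Fold changes of RPF are on that scale, which understates the change of low genes. In simulated tables of input counts edgeR recovered 196 of 200 genes changed by a log2 value of 2. The changed genes were drawn only from better-covered genes, at a fixed dispersion. That rate therefore does not cover genes as low as most switched genes. Ratios against 1 or 2 reads carry exact 95% intervals for counts, and empty libraries were given a floor of 3 reads each. Biotypes came from GENCODE release 44, in which 60418 of the genes were found, 99.9% of them on the same chromosome and strand and starting within 100 kb. The start-site regions were matched by symbol. Values of some genes are not reported here.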

Additional observations from a re-analysis of the deposited data

How the results depend on the processing

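How many genes were switched depended on the limits and the depth. On genes numbered 22 with no read allowed in the low genotype, 132 with up to 5, 190 with at least 5 reads in each library of the high genotype, 27 with at least 20 and 43 after scaling to the smallest library. Off genes numbered 5 with no read allowed, 65 with at least 5 and 5 with at least 20. Each input library was also left out in turn. When the library left out was of the low genotype, the limit for the one that remained was lowered to 1 read. This gave 95 to 136 on and 17 to 32 off genes. On genes numbered 101, 136 and 111 without METTL5-WT replicate 1, METTL5-KO replicate 1 and METTL5-KO replicate 2. Off genes numbered 32 and 27 without METTL5-WT replicate 1 and 2. By that lowered limit, 59 and 57 of the 65 on genes still met the rule without METTL5-WT replicate 1 or 2. Without METTL5-KO replicate 1, 12 of the 14 off genes did. EPB41L3 and MAG were lost because each had 2 reads in METTL5-KO replicate 2, more than the lowered limit allows. In the input fit, leaving out a library gave 659 to 2784 genes called higher and 561 to 2690 called lower, lowest without METTL5-WT replicate 1, next lowest without replicate 2 (752 and 616) and highest without METTL5-KO replicate 1, a lone library being assumed to vary like the other group. DESeq2 called 1109 higher and 1073 lower.

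The neighbours of on genes were called higher in 22.1% with 1 gene each side and in 8.37% by DESeq2, beside 7.91% of all genes by DESeq2. With each library left out the neighbours of on genes were called higher in 6.73% to 18.0% and lower in 2.20% to 17.1%, and those of off genes higher in 4.11% to 19.2% and lower in 5.48% to 20.5%, beside 4.39% to 19.03% higher and 3.74% to 18.4% lower over all genes in the same fits. With up to 10 genes each side the shares were 12.3% higher beside on genes and 16.5% lower beside off genes.

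RPF changes passed the test in the direction of the input for 5 of 8 genes by edgeR and for 1 to 4 with each library left out, lowest without METTL5-KO replicate 2. With each library left out the RPF log2 fold change of ALPK3 ran from -0.079 (without METTL5-WT replicate 1) to 1.31. With a mean RPF value of at least 10, 5 of the 8 genes remained in the fit. Samples of the same number in the 2 genotypes did not deviate together across genes (correlation 0.04 in input and -0.0021 in RPF). A value near 0 cannot exclude that samples of the same number were handled together. With the replicate number as a block 1848 genes were higher and 1706 lower in input, and 4 of 8 genes passed in RPF, KIRREL3 being added at an adjusted p of 0.0440 by limma. The cause of these shifts was not tested. With 2 libraries a group and medians of 41 and 36.5 reads, absence means fewer reads than this depth can show.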
